A study of Homo sapiens with 15 samples.

Results

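HIF1α-KO U87-MG cells and control U87-MG cells, both cultured in 1% O2 for 24 h, were compared across the miRNAs counted by miRNA-Seq. The comparison used 6 of the 15 libraries of the study, chosen by their labels: 3 of HIF1α-KO cells and 3 of control cells. U87-MG is an established human glioblastoma cell line, and the control cells carried no interference with HIF1α or HIF2α. HIF1α was knocked out by the CRISPR/Cas9 system with an sgRNA delivered by lentivirus, and no isolation of clones is described in the methods. A control with an empty vector or a non-targeting sgRNA is not described either. Effects of the transduction, or other differences between the cultures, therefore cannot be told apart from those of HIF1α loss. The other libraries, with 3 in each group, were of HIF2α-KO cells, of cells in which HIF1α and HIF2α were both knocked out (HIF1α/HIF2α-KO), each in 1% O2 for 24 h, and of control cells in 21% O2 for 24 h. The assay does not measure the mRNA of HIF1A, so the knockout was not checked in these libraries. The labels do not say that the replicates came from separate cultures, so the p-values measure the spread between these libraries, which may be technical.

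Total counts in the 6 libraries ranged from 10360337 to 22496373, and a floor of 3 counts in a library corresponded to 0.133 to 0.290 CPM, the counts scaled to the library total, with counting error alone considered. Of the 1707 miRNAs in the files, the 562 that passed the filter on low values accounted for 99.989% or more of every library. The glioma-associated miR-21-5p was abundant in every library, with 167543, 160475 and 192576 CPM in control cells and 189396, 195552 and 212010 CPM in HIF1α-KO cells. Of the other glioma markers listed, miR-10b-5p was at 2258 to 4030 CPM and miR-196a-5p at 64.4 to 148 CPM in the 6 libraries. miR-196b-5p was near the floor, at 0.259 to 0.645 CPM, and was not tested. A library of each group stood apart in miRNAs of other cell types. The endothelial markers miR-126-3p and miR-126-5p, both detected, summed to 50.8 CPM in control 1 and to 4.28 and 5.02 CPM in controls 2 and 3, and to 33.4 CPM in HIF1α-KO 3 against 6.44 and 4.01 CPM in HIF1α-KO 1 and 2. The 6 blood cell markers, of which miR-223-3p was at 0 in all 6 libraries, summed to 23.9 and 17.6 CPM in control 1 and HIF1α-KO 3 and to between 4.50 and 5.24 CPM in the other 4. The 6 epithelial markers summed to 118 and 85.3 CPM in that pair and to between 42.8 and 60.6 CPM in the others. Their most abundant member, miR-200c-3p, did not separate the pair (49.3 and 39.0 CPM, against 34.8 to 52.4 CPM in the others). The remaining members did, such as miR-205-5p (18.6 and 13.6 CPM against 0.586 to 1.47 CPM). The neural miRNA miR-9-5p was at 4753 and 1829 CPM in that pair and between 6124 and 8019 CPM in the others. Since each group held 1 such library, values are also given within the pair with more miR-126 (control 1 and HIF1α-KO 3) and within the other 4 libraries. The 3 muscle markers summed to 6.73, 20.7 and 27.9 CPM in control cells and 44.2, 35.6 and 8.45 CPM in HIF1α-KO cells. Those of smooth muscle or fibroblasts were also highest in control 1 and HIF1α-KO 3, at 538, 165 and 132 CPM in control cells and 240, 210 and 453 CPM in HIF1α-KO cells. The neuronal markers summed to 6328 to 10474 CPM in control cells and 3394 to 8788 CPM in HIF1α-KO cells. Embryonic stem cell markers stayed at or below 0.216 CPM. The part of these libraries in the results was not tested beyond those values. The libraries were of a cell line, and the source of the miRNAs of other cell types in that pair was not tested. In bulk samples, a change in the share of cells and in RNA per cell cannot be told apart.

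HIF1α is the oxygen-sensitive subunit of a transcription factor that is degraded when oxygen is present and binds hypoxia response elements with the core ACGTG or GCGTG when it is not. miR-210 is the miRNA best known as its target and is commonly called a hypoxamiR. A miRNA hairpin yields a strand from its 5′ arm and a strand from its 3′ arm, and the seed, bases 2 to 8 of the mature strand, largely decides which mRNAs it represses, so that miRNAs with the same seed are grouped as families. Hairpins that lie close together are often cut from the same primary transcript and are called clusters. The sequences below are those of the strands that fell in HIF1α-KO cells, with miR-767-5p and miR-424-5p, partners in the clusters of miR-105 and miR-503, for comparison. They are from RefSeq (GRCh38.p14), and capitals mark the seed.
miR-210-3p: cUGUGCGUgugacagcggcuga
miR-210-5p: aGCCCCUGcccaccgcacacug
miR-105-5p: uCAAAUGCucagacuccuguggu
miR-105-3p: aCGGAUGUuugagcaugugcua
miR-767-3p: uCUGCUCAuaccccaugguuucu
miR-767-5p: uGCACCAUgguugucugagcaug
miR-503-5p: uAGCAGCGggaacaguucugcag
miR-424-5p: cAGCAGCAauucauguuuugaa
miR-584-5p: uUAUGGUUugccugggacugag
The 7 strands that fell have 7 different seeds and come from 6 hairpin loci. miR-503-5p and miR-424-5p share most of the seed but not all of it.

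A further set of strands had higher values in every HIF1α-KO library than in every control library, in pairs with the same seed, without passing the adjusted threshold. They are shown because reads of such similar strands can be assigned to either member. All but miR-215-5p were named by a rule that asked for no overlap between the groups, so its absence is no finding for them.
miR-378a-3p: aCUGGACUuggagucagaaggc
miR-378c: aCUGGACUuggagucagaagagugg
miR-192-5p: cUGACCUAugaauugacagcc
miR-215-5p: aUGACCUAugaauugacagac
miR-146a-5p: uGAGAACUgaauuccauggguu
miR-146b-5p: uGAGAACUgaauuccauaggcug

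HIF1α-KO cells had lower levels of 7 miRNA strands than control cells. These were both strands of miR-210, both strands of miR-105, miR-767-3p, miR-503-5p and miR-584-5p. They made up 1.25% of the miRNAs tested, by edgeR's quasi-likelihood test at a Benjamini-Hochberg adjusted p under 0.05. Higher levels at this threshold were found for 0 miRNAs (0%). At an unadjusted p under 0.05, 35 miRNAs were lower (6.23%) and 32 were higher (5.69%), and the values of the groups did not overlap for 64 miRNAs that were lower (11.4%) and 57 that were higher (10.1%). With 3 libraries against 3, an exact permutation test cannot give a two-sided p below 0.1, which is the p of every miRNA without overlap. The Wald test of DESeq2 gave 7 lower and 5 higher, and limma gave 4 lower and 2 higher, at an adjusted p under 0.05. The 7 calls were made with the spread estimated from all 15 libraries. When only the 6 libraries were fitted 0 miRNAs passed in either direction, with 24 lower and 43 higher at an unadjusted p under 0.05. Leaving out control 1, HIF1α-KO 1 or HIF1α-KO 2 left 2 of the 7, leaving out HIF1α-KO 3 left 4, and leaving out control 2 or control 3 left 5. Without both control 1 and HIF1α-KO 3, a fit chosen after the data had been seen, 3 remained.

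The balance between lower and higher miRNAs depended on the scaling. The median log2 fold change over all miRNAs tested was -0.05 with TMM scaling and 0.07 with upper-quartile factors. The latter gave 17 lower and 51 higher at an unadjusted p under 0.05, total counts gave 26 and 40, and limma after quantile normalization gave 25 and 43. Precision followed abundance, since the median standard error of the log2 fold change was 0.49 for the 81 miRNAs with a mean under 1 CPM and 0.15 for the 42 with at least 1000 CPM. In these classes 6.17% and 19% had an unadjusted p under 0.05, and 21.4% of the 84 miRNAs between 100 and 1000 CPM did. Among the 42 most abundant miRNAs the median size of the log2 fold change was 0.17, and 0 of them passed the adjusted threshold while 8 had an unadjusted p under 0.05.

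**Figure D1:**
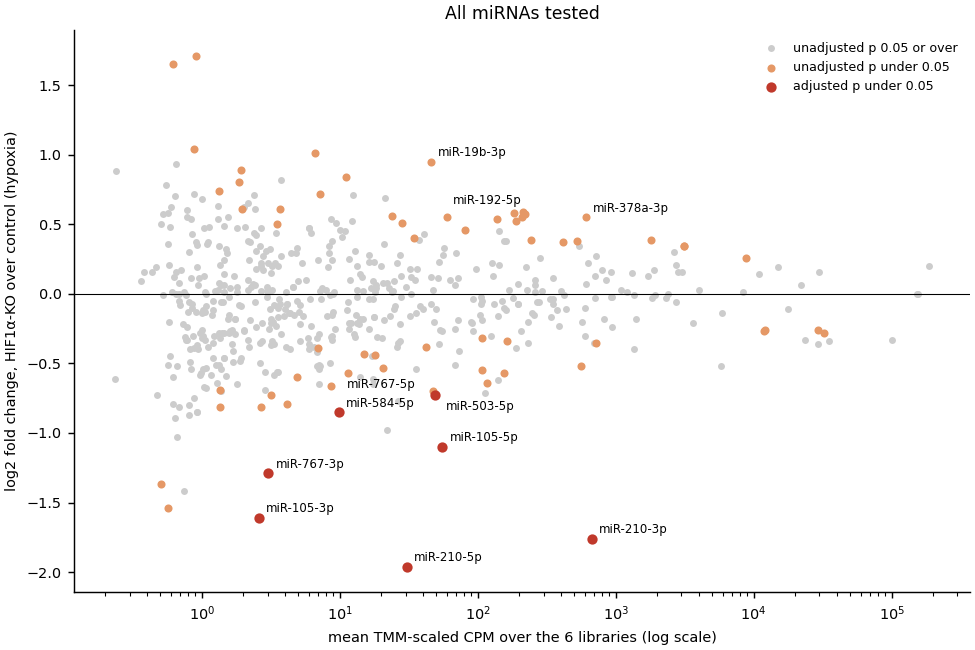
Each point is a miRNA, with its mean level over the 6 libraries in TMM-scaled CPM on a log axis and its log2 fold change from control to HIF1α-KO cells under hypoxia. The 7 red points, with an adjusted p under 0.05, all lie below 0, whereas the orange points, with an unadjusted p under 0.05, lie on both sides (28 below and 32 above).

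The miR-210 hairpin lies in an intron of the long noncoding RNA MIR210HG, with the 3′ strand at chr11:568112-568133 and the 5′ strand at chr11:568150-568171 on the minus strand. The 3′ strand is the main product and is known to repress genes of mitochondrial respiration and iron-sulphur cluster assembly. In control cells miR-210-3p was at 1153, 1039 and 935 CPM, and in HIF1α-KO cells at 250, 240 and 436 CPM. All HIF1α-KO libraries were below all control libraries, and HIF1α-KO 3, which had more miR-126, was the highest of them. The level fell from 1042 ± 109 to 309 ± 110 CPM (SD, n = 3), a log2 fold change of -1.76 (standard error, SE, 0.31, edgeR adjusted p = 0.0126). miR-210-5p was at 68.2, 42.1 and 36.0 CPM in control cells and 11.0, 9.14 and 17.4 CPM in HIF1α-KO cells, again without overlap, and it fell by 1.96 on the log2 scale (SE 0.30, edgeR adjusted p = 0.00382). Within the pair of libraries with more miR-126 the log2 ratio was -1.40 for the 3′ and -1.97 for the 5′ strand, and within the other 4 it was -2.01 and -1.96. The call for miR-210-3p was lost without control 1 (edgeR adjusted p = 0.0645), without HIF1α-KO 1 (0.107) and without HIF1α-KO 2 (0.102), whereas miR-210-5p passed when any 1 of the 6 libraries was left out.

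A gain of miR-210 between normoxia and hypoxia was not detected in the control cells. The control cells in 21% O2 had 1018, 1308 and 1237 CPM of miR-210-3p, a range that overlaps that of the control cells in 1% O2. The log2 fold change from normoxia to hypoxia was -0.19 for miR-210-3p and 0.04 for miR-210-5p, and the unadjusted p-values in edgeR were 0.545 and 0.890. Across all miRNAs, 0 passed the adjusted threshold between the control groups in edgeR (0%), DESeq2 or limma, 15 passed in edgeR without the filter on low counts, and 35 had an unadjusted p under 0.05 in edgeR. The hypoxic control libraries are shared by both comparisons.

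The cluster of miR-105 and miR-767 also fell. These are miRNAs that are normally restricted to germline tissue and are reactivated in some cancers. The hairpins MIR105-1, MIR767 and MIR105-2 lie within chrX:152392219-152394492 on the minus strand, in an intron of GABRA3, the gene of a GABA receptor subunit. MIR105-1 and MIR105-2 give identical mature strands, so that reads of miR-105 cannot be assigned to either. miR-105-5p was at 67.3, 76.4 and 83.3 CPM in control cells and 38.5, 36.6 and 30.4 CPM in HIF1α-KO cells. The highest HIF1α-KO library was well below the lowest control library, and the fall was by 1.10 on the log2 scale (SE 0.16, edgeR adjusted p = 0.00382). Like miR-210-5p, it passed when any 1 of the 6 libraries was left out, with adjusted p-values up to 0.0395 in edgeR.

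The other strands of this cluster were lower as well. miR-767-3p was at 5.71, 4.02 and 3.28 CPM in control cells and 1.79, 1.91 and 1.53 CPM in HIF1α-KO cells, and fell by 1.29 on the log2 scale (SE 0.25, edgeR adjusted p = 0.0194). miR-105-3p was at 5.71, 3.11 and 2.91 CPM in control cells and 1.30, 1.37 and 1.08 CPM in HIF1α-KO cells, and fell by 1.61 (SE 0.34, edgeR adjusted p = 0.0295). Control 1 was the highest library for both, and counts were low, from 12 to 28 in HIF1α-KO cells for miR-105-3p and from 17 to 39 for miR-767-3p. Without control 1 the log2 fold change was -1.03 for miR-767-3p and -1.23 for miR-105-3p, with edgeR adjusted p-values of 0.121 and 0.221. Both calls were also lost when any 1 HIF1α-KO library was left out (edgeR adjusted p from 0.0871 to 0.181). miR-767-5p was at 63.6, 58.7 and 54.4 CPM in control cells and 36.7, 29.5 and 42.6 CPM in HIF1α-KO cells, a log2 fold change of -0.70 with an adjusted p of 0.123 in edgeR. The 4 strands together summed to 142, 142 and 144 CPM in control cells and to 78.2, 69.4 and 75.6 CPM in HIF1α-KO cells. The log2 ratio of this sum was -0.91 within the pair of libraries with more miR-126 and -0.95 within the other 4. The less abundant strands differed more between these sets, with -2.40 against -1.17 for miR-105-3p and -1.90 against -0.98 for miR-767-3p.

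miR-503 belongs to a cluster on chromosome X that is known for restraining the cell cycle. Its hairpin lies in an intron of MIR503HG, with miR-503-5p at chrX:134546371-134546393 on the minus strand, and the hairpins of miR-424 and the miR-450 group lie near it. miR-503-5p was at 64.2, 57.0 and 63.6 CPM in control cells and 34.1, 33.0 and 44.4 CPM in HIF1α-KO cells. It fell by 0.73 on the log2 scale (SE 0.15, edgeR adjusted p = 0.0295), without overlap between the groups. The call was lost when any 1 library other than HIF1α-KO 3 was left out, with adjusted p-values of 0.0821 to 0.254 in edgeR, and with total counts (0.0707) or upper-quartile factors (0.0877) in place of TMM. It was also lost with limma (adjusted p = 0.125), without the filter on low counts (edgeR, 0.428) and with the replicate number as a block (edgeR, 0.0824). miR-424-3p was at 179, 178 and 200 CPM in control cells and 117, 134 and 123 CPM in HIF1α-KO cells, a log2 fold change of -0.57 with an adjusted p of 0.154 in edgeR. miR-424-5p overlapped between the groups (log2 fold change -0.29). Of the 8 strands of the miR-424/miR-503 cluster tested, 7 had log2 fold changes below 0, 2 had an unadjusted p under 0.05 and 1, miR-503-5p, passed, and the median was -0.46 against -0.05 over all miRNAs tested. Their sum was 338, 390 and 431 CPM in control cells and 272, 298 and 216 CPM in HIF1α-KO cells.

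miR-584 is cut from an intron of SH3TC2, with miR-584-5p at chr5:149062373-149062394 on the minus strand. The control values were 12.9, 12.7 and 12.4 CPM and the HIF1α-KO values 8.31, 6.16 and 6.65 CPM, a fall by 0.85 on the log2 scale (SE 0.19, edgeR adjusted p = 0.0378). Controls lay close together and every HIF1α-KO library was below them. This was nevertheless the call nearest to the threshold, and it was lost when any 1 of the 6 libraries was left out (edgeR adjusted p from 0.107 to 0.254). Total counts, upper-quartile factors, limma and the fit without the filter lost it too (adjusted p of 0.0707, 0.0792, 0.142 and 0.428). It was grouped with miR-550a, miR-873 and miR-876, unrelated miRNAs that were put together because earlier results of these data had shown them lower, so that the direction of the group is no finding. In that group all 7 strands tested had log2 fold changes below 0 and 5 had an unadjusted p under 0.05. Examples are miR-873-3p, at 14.1, 12.4 and 14.7 CPM against 9.45, 8.45 and 9.89 CPM, and miR-550a-3p, at 6.45, 5.19 and 4.15 CPM against 3.59, 2.93 and 2.61 CPM.

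**Figure D2:**
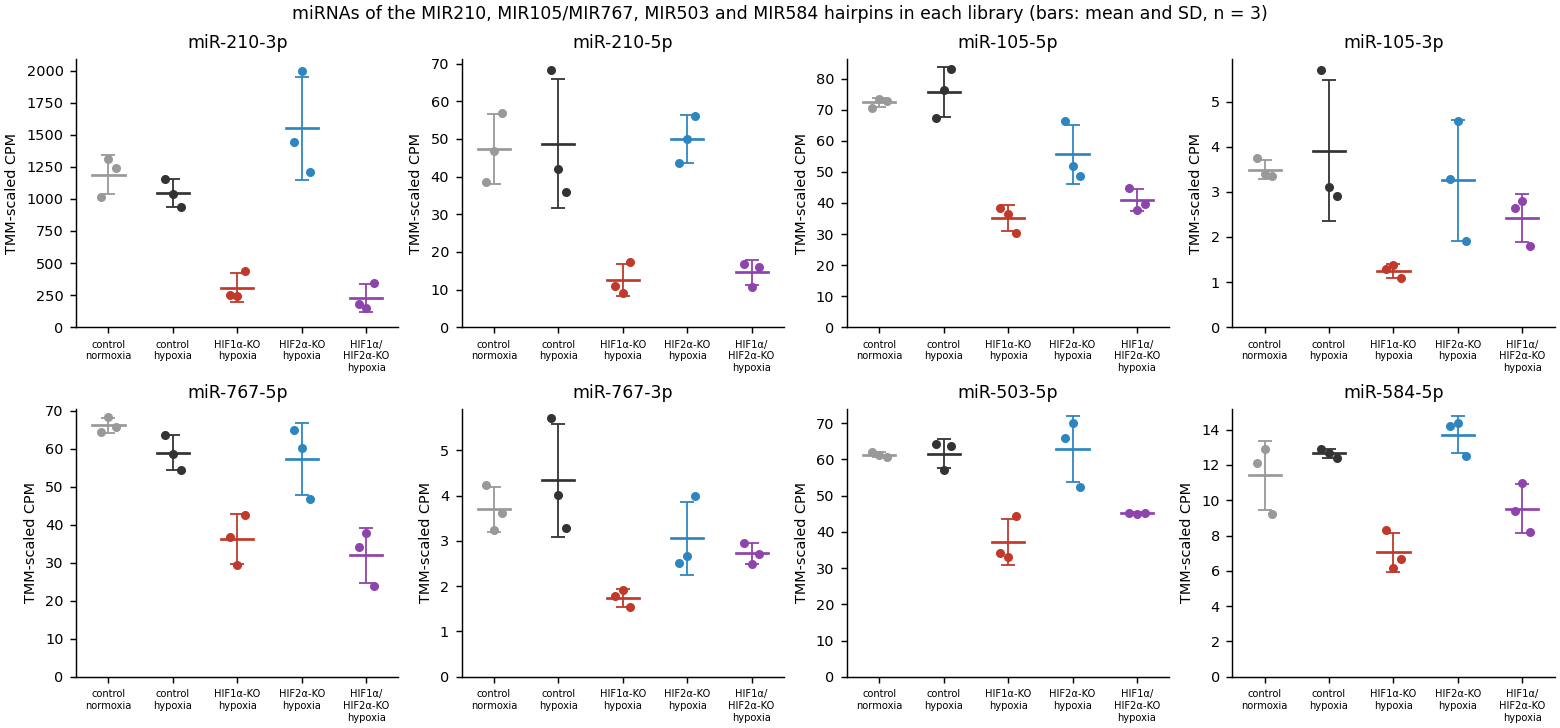
Each point is a library and gives the level of a strand in TMM-scaled CPM in the 5 groups of the study, with the mean as a line and the SD as bars (n = 3). In every panel the 3 HIF1α-KO libraries lie below the 3 hypoxic control libraries, and for miR-503-5p the normoxic control libraries, at 60.6 to 62.0 CPM, are within the range of the hypoxic ones, 57.0 to 64.2 CPM.

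Of the 44 families and clusters described, those with 1 strand or more past the adjusted threshold were the 4 above. The remaining lists gave 0 calls each, and they are described by how many members had log2 fold changes below or above 0 and how many had an unadjusted p under 0.05 in edgeR (6.23% of all miRNAs were lower and 5.69% higher by that rule). Over all miRNAs tested, 314 had log2 fold changes below 0 and 248 above, and with upper-quartile factors 242 and 320. The 44 lists were chosen with earlier results of these data known, so these shares are no fair background for them. They held 262 of the miRNAs tested, and 55 of those had an unadjusted p under 0.05 in edgeR, against 12 outside the lists. The tallies below are therefore description only, and the direction of a list is no separate finding.

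The let-7 family, miRNAs of differentiated cells whose maturation LIN28 blocks, had the most members below 0 among the lists, with 19 of the 20 strands tested. The median log2 fold change was -0.32, and 6 strands had an unadjusted p under 0.05. Of these strands 9 have the seed GAGGUAG and may share reads, so the members do not count as separate evidence. let-7i-3p was at 13.2, 9.72 and 9.10 CPM in control cells and 6.36, 6.30 and 7.55 CPM in HIF1α-KO cells, and let-7i-5p was at 33246, 36294 and 36888 CPM against 31251, 30601 and 25617 CPM. Their log2 fold changes were -0.66 and -0.28, with edgeR adjusted p-values of 0.381 and 0.287. For let-7b-3p the values were 141, 132 and 114 CPM against 99.4, 97.3 and 66.6 CPM, and for let-7d-3p 124, 116 and 119 CPM against 105, 87.0 and 95.7 CPM. The family summed to 261029, 287171 and 296863 CPM in control cells and to 261136, 255585 and 160143 CPM in HIF1α-KO cells, and HIF1α-KO 3 was far below the rest. The log2 ratio of the sum was -0.70 within the pair with more miR-126 and -0.18 within the other 4 libraries. Without both libraries of that pair, 17 strands were below 0, the median was -0.14 and 0 had an unadjusted p under 0.05, and with upper-quartile factors 1 did.

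Smaller lower values were found in other families. miR-27a-3p and miR-27b-3p, which share a seed and regulate lipid metabolism and angiogenesis, were at 12367, 12970 and 13979 CPM and at 12297, 12789 and 13879 CPM in control cells. In HIF1α-KO cells they were at 11115, 10003 and 11626 CPM and at 10967, 9766 and 11541 CPM. Their log2 fold changes were -0.26 and -0.27, with an adjusted p of 0.287 for each in edgeR. The ratio of miR-27a-3p to miR-27b-3p was between 1.01 and 1.02 in all 6 libraries, so they may share reads and are not independent. Of the 10 strands of the miR-23/miR-27/miR-24 clusters tested, these were the 2 with an unadjusted p under 0.05. miR-15b-5p, which represses cell-cycle genes, was at 199, 174 and 174 CPM against 152, 136 and 143 CPM (log2 fold change -0.34, edgeR adjusted p = 0.169). It was the only strand with an unadjusted p under 0.05 among the 9 of the miR-15/miR-16/miR-195/miR-497 family tested. miR-25-3p, of the cluster in an intron of MCM7, was at 4041, 3865 and 3793 CPM against 3353, 3360 and 3378 CPM (log2 fold change -0.21). The groups did not overlap, but the unadjusted p was 0.0881 in edgeR. miR-7-1-3p, which overlaps an exon of some transcript of HNRNPK by the annotation, was at 26.1, 23.0 and 23.9 CPM against 17.4, 17.5 and 15.5 CPM. miR-196a-5p, cut from hairpins in the HOX clusters, was at 139, 148 and 138 CPM against 98.8, 109 and 64.4 CPM (log2 fold changes of -0.53 and -0.64, both with an adjusted p of 0.180 in edgeR). In the same list of HOX-cluster miRNAs miR-10b-5p had the opposite sign, at 0.34, so its members did not move together.

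Among the lists with higher values was the miR-378 family. miR-378a is cut from an intron of PPARGC1B, a coactivator of mitochondrial metabolism, and the family takes part in energy metabolism. miR-378a-3p was at 424, 556 and 503 CPM in control cells and at 676, 795 and 695 CPM in HIF1α-KO cells, without overlap. The log2 fold change was 0.55 (SE 0.13, edgeR adjusted p = 0.0651), and it passed in 6 of the 12 other settings that kept all replicates or left out the pair with more miR-126. miR-378c was at 149, 192 and 171 CPM against 236, 286 and 229 CPM, and miR-378d at 142, 200 and 172 CPM against 244, 299 and 232 CPM, and their edgeR adjusted p-values were 0.0736 and 0.103. All 9 strands tested had log2 fold changes above 0, with a median of 0.32. The ratio of miR-378a-3p to miR-378c lay between 2.78 and 3.03 in the 6 libraries, so that their reads may overlap and the members do not count as separate evidence. The other strand of the hairpin, miR-378a-5p, had a log2 fold change of 0.18 and overlapping groups. The family summed to 780, 992 and 890 CPM in control cells and to 1212, 1439 and 1220 CPM in HIF1α-KO cells. The log2 ratio of the sum was 0.65 within the pair with more miR-126 and 0.49 within the other 4 libraries.

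The hairpins of the miR-532/miR-502 cluster lie in introns of CLCN5, a chloride channel gene on chromosome X. All 14 strands tested had log2 fold changes above 0, 5 had an unadjusted p under 0.05 and the median was 0.43. miR-532-5p was at 465, 418 and 494 CPM in control cells and 571, 602 and 622 CPM in HIF1α-KO cells, miR-660-5p at 53.1, 41.1 and 52.3 CPM against 70.8, 63.2 and 79.7 CPM, and miR-362-5p at 17.1, 18.2 and 22.2 CPM against 25.1, 28.7 and 31.2 CPM. Their log2 fold changes were 0.38, 0.55 and 0.56, with edgeR adjusted p-values of 0.310, 0.279 and 0.279. The cluster summed to 942, 770 and 891 CPM against 1091, 1083 and 1249 CPM, with a log2 ratio of 0.41 within the pair with more miR-126 and 0.39 within the other 4. Strands of a cluster share a transcript, so these members are not independent either.

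miR-192 and miR-215, which share most of their sequence and are induced by p53, were higher in all HIF1α-KO libraries. miR-192-5p was at 162, 172 and 195 CPM against 242, 303 and 240 CPM (log2 fold change 0.57, standard error 0.13, edgeR adjusted p = 0.0586). It was the lowest adjusted p among the higher miRNAs, and the miRNA passed in 6 of 12 other settings, among them the size factors of DESeq2 and its Wald test. miR-215-5p was at 60.0, 73.1 and 71.3 CPM against 91.8, 107 and 82.3 CPM (log2 fold change 0.46, edgeR adjusted p = 0.154). miR-146a-5p and miR-146b-5p, which are induced by NF-κB and dampen inflammatory signalling, were at 113 ± 11.9 and 146 ± 10.8 CPM (SD, n = 3) in control cells. In HIF1α-KO cells they were at 164 ± 21.6 and 218 ± 26.8 CPM, without overlap, with log2 fold changes of 0.54 and 0.58 and edgeR adjusted p-values of 0.170 and 0.139. All 4 strands of the miR-192/miR-194/miR-215 list and all 3 of the miR-146 family had log2 fold changes above 0.

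The miR-17-92 cluster, which MYC drives and which promotes proliferation, was split. miR-19b-3p was at 31.1, 28.2 and 34.7 CPM against 55.8, 53.3 and 72.2 CPM, and miR-17-5p at 213, 206 and 218 CPM against 260, 264 and 309 CPM. miR-19a-3p was at 5.71, 7.91 and 10.1 CPM against 17.3, 15.4 and 9.80 CPM, where HIF1α-KO 3 was within the control range. The log2 fold changes were 0.95, 0.39 and 0.84, with edgeR adjusted p-values of 0.203, 0.408 and 0.240. The 9 strands tested held 7 above 0, with a median of 0.26, and the sum of the cluster overlapped between the groups. In the miR-106b-25 cluster, a paralog, 4 of 6 strands were below 0 with a median of -0.13, and in the miR-106a-363 cluster 2 of 3 were above 0, among them miR-20b-5p (1.01, 1.90 and 1.67 CPM against 2.36, 2.39 and 2.43 CPM). The seed family of miR-17 (AAAGUGC), which runs through all 3 clusters, had 5 of 6 members above 0 and 2 with an unadjusted p under 0.05.

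The miR-183/miR-96/miR-182 cluster, known from sensory organs and overexpressed in many tumours, had all 3 strands above 0. miR-182-5p was at 152, 185 and 130 CPM against 253, 229 and 188 CPM and miR-96-5p at 20.1, 28.1 and 21.9 CPM against 36.8, 34.1 and 29.4 CPM, with log2 fold changes of 0.52 and 0.51. miR-582-3p, in an intron of PDE4D, was at 3.13, 3.72 and 6.41 CPM against 7.99, 12.5 and 6.20 CPM, and miR-616-5p, in an intron of DDIT3, at 1.11, 1.30 and 1.60 CPM against 2.61, 2.35 and 2.52 CPM. miR-5010-3p, in an exon of ATP6V0A1 by the annotation, was at 1.94, 3.50 and 3.28 CPM against 4.97, 4.01 and 4.49 CPM. These 3 had log2 fold changes of 1.01, 0.89 and 0.61 and edgeR adjusted p-values of 0.139, 0.139 and 0.287. They were listed together because an earlier result of these data had shown them higher in cells without HIF1α and HIF2α. miR-320a-3p, which is made without the nuclease Drosha, was at 337, 365 and 381 CPM against 459, 473 and 469 CPM, and all 5 strands of its family were above 0, with a median of 0.34. miR-29a-3p, which represses collagen genes, was at 7535, 7980 and 8434 CPM against 9300, 10312 and 8995 CPM, and all 7 strands of the miR-29 family were above 0, with a median of 0.19. miR-1301-3p, in an intron of DNMT3A and in none of the lists, was at 6.08, 5.14 and 5.17 CPM against 8.31, 8.40 and 10.2 CPM (log2 fold change 0.72, edgeR adjusted p = 0.180). In the lists of this and the preceding paragraphs on higher values, none of the medians changed sign under the other scalings.

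**Figure D3:**
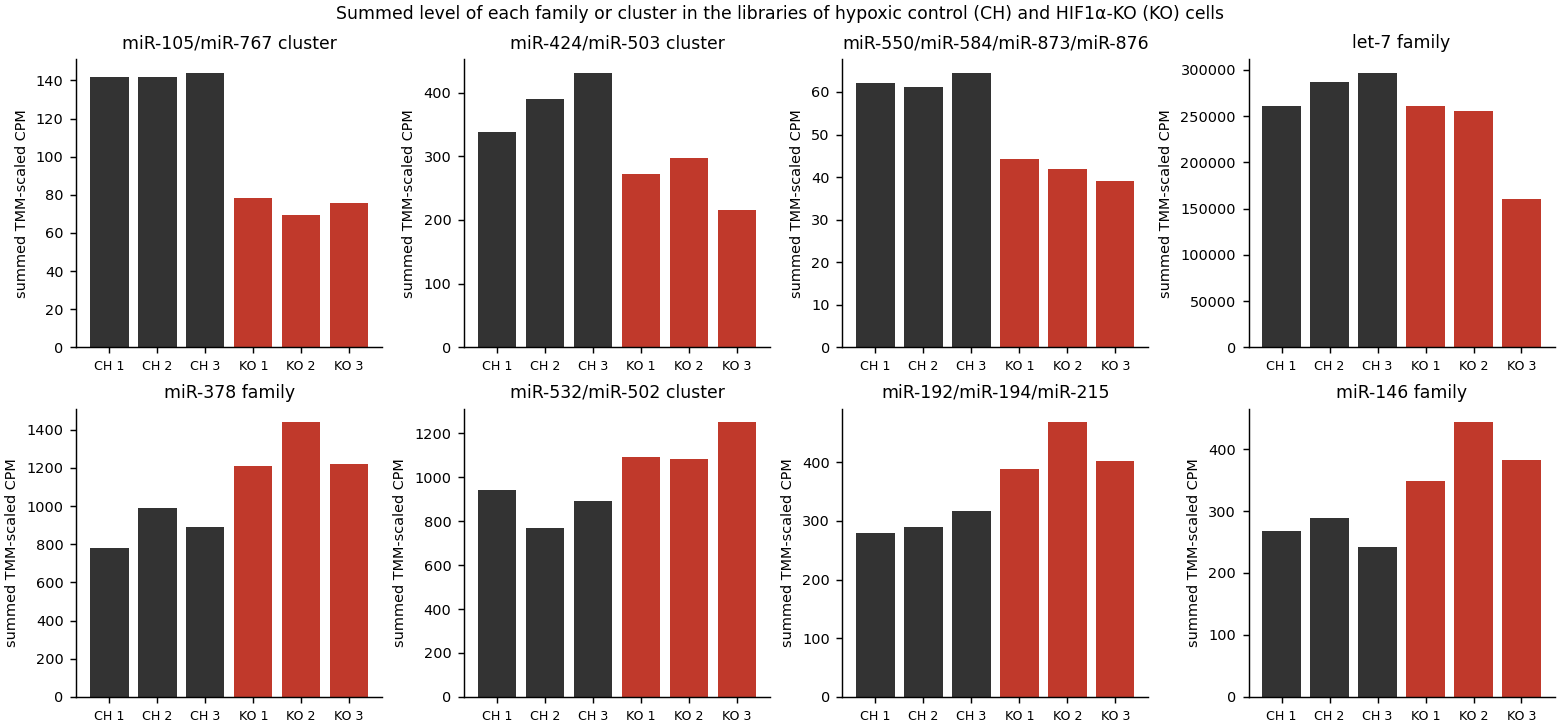
Bars give the summed TMM-scaled CPM of the members of a list in each of the 6 libraries, with the hypoxic control (CH) in black and HIF1α-KO (KO) in red. The sums of the miR-105/miR-767 cluster are between 142 and 144 CPM in control and between 69.4 and 78.2 CPM in HIF1α-KO libraries, whereas for the let-7 family HIF1α-KO 1 (261136 CPM) is level with control 1 (261029 CPM).

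Many abundant miRNAs had log2 fold changes close to 0. miR-100-5p and miR-99a-5p, which target the mTOR pathway, were at 170194, 148130 and 145733 CPM and 167214, 145922 and 143239 CPM in control cells, and each had a log2 fold change that rounds to 0 (standard error 0.13). Their ratio was between 0.982 and 0.985 in all 6 libraries, so they may share reads. miR-99b-5p of the same seed family was at 2951, 2849 and 2471 CPM against 2989, 3358 and 4135 CPM (log2 fold change 0.34, edgeR adjusted p = 0.400). miR-21-5p had a log2 fold change of 0.20 (SE 0.13, edgeR adjusted p = 0.597). miR-125b-5p was at -0.11, miR-221-3p at 0.06 and miR-181a-5p at -0.03, each with a SE of 0.10 to 0.12. Among miRNAs often reported in hypoxia, miR-26a-5p was at 0.16 and miR-107 at 0.15, and miR-155-5p was at -0.10 (standard errors of 0.20, 0.16 and 0.27). The miR-30 family held 6 strands below and 5 above 0, and miR-30a-5p, at 1629, 1391 and 1687 CPM against 2039, 1892 and 2225 CPM, was its only strand with an unadjusted p under 0.05. miR-204-5p, miR-22-3p and miR-148b-3p had log2 fold changes of 0.43, 0.17 and 0.13, and miR-130b-5p, miR-671-3p, miR-193b-3p and miR-335-3p of -0.12, -0.14, -0.54 and -0.62, with unadjusted p-values from 0.0799 to 0.497 in edgeR. miR-449c-5p, of the p53-linked miR-34/miR-449 family, was at 17.3 ± 2.62 CPM against 12.8 ± 2.19 CPM (SD, n = 3), with overlap between the groups.

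Families that mark other tissues gave little that separated the groups. The 14q32 cluster, an imprinted group of neural and placental miRNAs, had 18 of 24 strands below 0 with a median of -0.17, and 1 strand in each direction with an unadjusted p under 0.05. Without control 1 and HIF1α-KO 3 there were 12 above and 12 below 0 and 0 had an unadjusted p under 0.05 in edgeR. In the fit of all libraries these strands were miR-382-3p (1.57, 1.77 and 1.67 CPM against 1.30, 1.07 and 0.719 CPM) and miR-758-3p (1.11, 1.17 and 1.82 CPM against 2.61, 2.30 and 2.25 CPM). All 5 strands of the epithelial miR-200 family were below 0, but without control 1 and HIF1α-KO 3 the median of -0.23 became 0.73 with 4 of 5 above 0, and with miR-126 as a covariate or with limma 3 of 5 were above 0. miR-200c-3p, its most abundant, was at 49.3, 52.4 and 41.8 CPM against 36.3, 34.8 and 39.0 CPM (edgeR adjusted p = 0.314). miR-126-3p, miR-143-3p and miR-9-5p overlapped between the groups, with standard errors of 0.97, 0.44 and 0.39, and miR-138-5p, a neural miRNA, had a log2 fold change of 0.07. miR-218-2-3p had a log2 fold change of -1.54 at 2 to 6 counts per HIF1α-KO library, and the other tested strand of miR-218 was at -0.23.

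Where both strands of a hairpin were tested they could be compared with each other. Among hairpins with a pair of strands tested, the log2 fold changes of the strands had the same sign in 97 (66.9%), with Pearson's r = 0.61 across hairpins, which share the libraries and are not independent. For 5 hairpins both strands had an unadjusted p under 0.05, namely miR-210, miR-105, miR-767, let-7i and miR-550a, and in all 5 both strands were lower. The pair differed in size in places. In miR-424 the abundant 3′ strand had a log2 fold change of -0.57 and the 5′ strand -0.29, and in miR-146b the abundant 5′ strand had 0.58 and the 3′ strand 0.29, each second value with overlapping groups.

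The knockout of HIF1α was also present in cells that lacked HIF2α, which gave a comparison in other libraries. Between HIF1α/HIF2α-KO and HIF2α-KO cells, 7 miRNAs were lower (1.25%) and 3 were higher (0.534%) with an adjusted p under 0.05 in edgeR. This comparison shares no library with that of HIF1α-KO and control cells, although both rest on the same estimate of the spread. Its groups were not balanced in miR-126. The endothelial markers summed to 35.7, 4.28 and 23.6 CPM in HIF2α-KO cells and to between 6.64 and 15.7 CPM in HIF1α/HIF2α-KO cells. Median log2 fold changes in this comparison were -1.13 for miR-126 and -0.77 for the miR-200 family. With miR-126 as a covariate 12 miRNAs passed in edgeR, against 10. The values and overlaps below were not adjusted for miR-126, and its part in them was not tested. miR-210-3p fell from 1550 ± 404 to 225 ± 108 CPM (SD, n = 3), a log2 fold change of -2.79 (edgeR adjusted p = 0.000381), and miR-210-5p by 1.78 on the log2 scale (edgeR adjusted p = 0.0101). miR-767-5p, which did not pass above, was at 64.9, 60.3 and 46.8 CPM in HIF2α-KO cells and at 34.1, 37.8 and 23.8 CPM in HIF1α/HIF2α-KO cells, and fell by 0.85 (edgeR adjusted p = 0.0459). The other strands that had fallen in HIF1α-KO cells had log2 fold changes below 0 without passing. These were -0.45 for miR-105-5p, -0.42 for miR-105-3p, -0.16 for miR-767-3p, -0.48 for miR-503-5p and -0.53 for miR-584-5p, with edgeR adjusted p-values of 0.127, 0.499, 0.763, 0.101 and 0.127. In HIF2α-KO cells miR-105-5p was at 66.5, 51.8 and 48.6 CPM, against 67.3, 76.4 and 83.3 CPM in control cells.

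Further strands passed without HIF2α. Among them miR-582-3p rose by 1.27 on the log2 scale (edgeR adjusted p = 0.0472), with 1.01 in the presence of HIF2α, and miR-449c-5p and miR-125b-5p fell by 1.02 and 0.45 (adjusted p = 0.0148 and 0.0291 in edgeR). miR-582-3p had been listed for an earlier result in cells without HIF1α and HIF2α, so its rise here is no separate finding. The other miRNAs that passed were named after their values had been seen. miR-10395-5p and miR-2277-5p fell by 1.90 and 1.51, against -0.13 and -0.38 in the presence of HIF2α, and miR-30c-2-3p and miR-605-5p rose by 0.80 and 1.32, against 0.18 and 0.01. When the difference between the effects of HIF1α knockout without and with HIF2α was tested itself, 0 miRNAs passed the adjusted threshold in edgeR (0%), in DESeq2 or in limma, and 59 had an unadjusted p under 0.05 in edgeR. For miR-210-3p this difference was -1.03 (unadjusted p = 0.0316 in edgeR), for miR-105-5p 0.66 (0.0106), for miR-767-3p 1.13 (0.00593) and for miR-19b-3p -1.49 (0.00524), each with an adjusted p of 0.378 or 0.439. Without the filter on low counts, 5 miRNAs passed for this difference.

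Of the 35 miRNAs that were lower with an unadjusted p under 0.05 in HIF1α-KO cells, 18 were also lower with an unadjusted p under 0.05 in the absence of HIF2α, which is 51.4% of the first list and 25.4% of the 71 of the second. Those 71 are 12.6% of all miRNAs tested. Of the 32 that were higher, 8 were also higher, which is 25% of the first list and 19.5% of the 41 of the second (7.30% of all miRNAs tested), and 2 (miR-320a-3p and miR-758-3p) were lower. The 18 included miR-503-5p, miR-424-3p, miR-584-5p, miR-196a-5p, miR-15b-5p, let-7i-5p and let-7i-3p. The 8 included miR-192-5p, miR-215-5p, miR-378a-3p, miR-378c and miR-582-3p, the last listed for an earlier result in cells without HIF1α and HIF2α. Whole lists did not all repeat. Without HIF2α the median log2 fold change was 0.05 for the miR-424/miR-503 cluster and -0.06 for the let-7 family, against -0.46 and -0.32. For the miR-378 family, the miR-532/miR-502 cluster and the miR-192/miR-194/miR-215 list it was 0.48, 0.33 and 0.29, against 0.32, 0.43 and 0.51. Values of miR-192-5p were 0.57 with and 0.53 without HIF2α, while those of miR-146a-5p were 0.54 and -0.16 and those of miR-146b-5p 0.58 and -0.15 (unadjusted p of the difference 0.0113 and 0.00825 in edgeR, neither past the adjusted threshold).

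**Figure D4:**
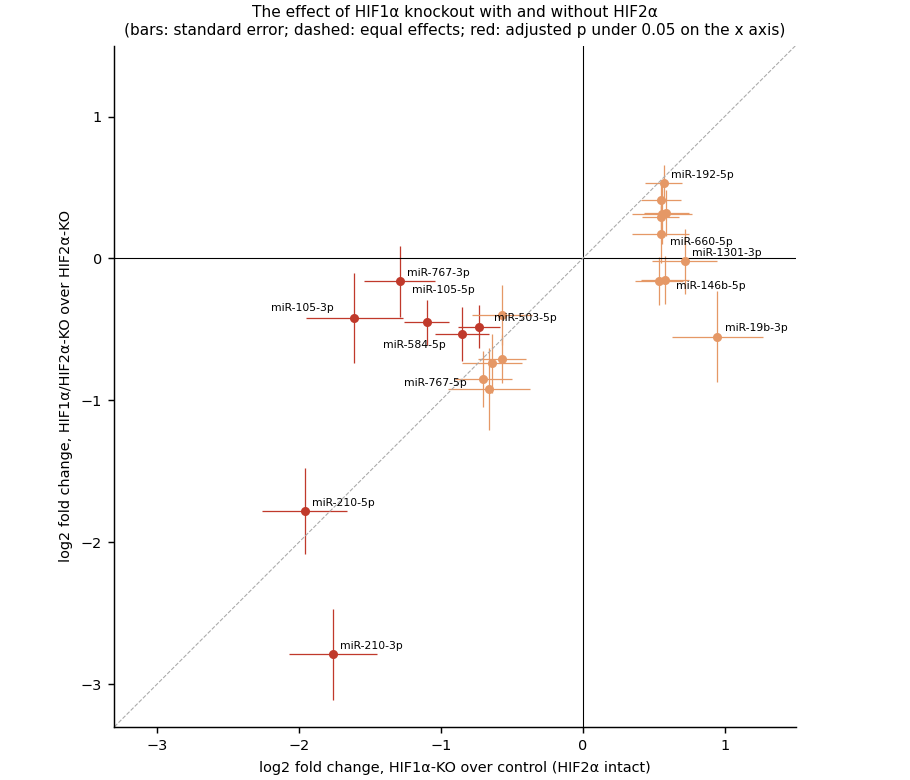
Each point is a called miRNA or another of the leading named ones, with its log2 fold change from control to HIF1α-KO cells on the x axis and from HIF2α-KO to HIF1α/HIF2α-KO cells on the y axis, both under hypoxia, and bars of 1 standard error. miR-210-3p (-1.76 and -2.79) and miR-210-5p (-1.96 and -1.78) are lowest on both axes, miR-105-3p and miR-767-3p lie nearer to 0 on the y axis (-0.42 and -0.16) than on the x axis (-1.61 and -1.29), and miR-19b-3p has opposite signs (0.95 and -0.55).

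Promoter windows of the host genes of the called miRNAs were searched, where available, for a core of the hypoxia response element. Those with a match are shown. ACGTG, searched on both strands (as ACGTG or CACGT), was found in 21.4% of the 35116 RefSeq promoter windows, each of 300 bases from 250 before to 50 after the start. With GCGTG (or CACGC) added, 48.4% of the windows held a match. The windows of MIR210HG (chr11:568408-568707, minus strand) and MIR503HG (chrX:134546581-134546880, minus strand) held 1 match of ACGTG each, 170 and 30 bases before the start and shown in capitals. Each also held 1 match of GCGTG, left in lower case. The window of SH3TC2 held 0 matches of either. Among host genes whose miRNAs were not called, ACGTG was found in windows of some, such as MIR22HG, MIR155HG and COPZ1. It was absent from those of others, such as MIR17HG and CDC20B. A match is thus not particular to the hosts of miRNAs that fell. No window was available for GABRA3, the host of the miR-105 and miR-767 hairpins, so its promoter was not searched.
MIR210HG: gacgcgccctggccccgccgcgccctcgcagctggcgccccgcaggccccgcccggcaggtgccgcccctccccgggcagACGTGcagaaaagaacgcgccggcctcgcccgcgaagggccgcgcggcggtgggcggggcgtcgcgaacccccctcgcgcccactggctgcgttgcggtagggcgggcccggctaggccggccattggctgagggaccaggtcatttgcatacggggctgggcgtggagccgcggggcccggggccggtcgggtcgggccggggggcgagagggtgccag
MIR503HG: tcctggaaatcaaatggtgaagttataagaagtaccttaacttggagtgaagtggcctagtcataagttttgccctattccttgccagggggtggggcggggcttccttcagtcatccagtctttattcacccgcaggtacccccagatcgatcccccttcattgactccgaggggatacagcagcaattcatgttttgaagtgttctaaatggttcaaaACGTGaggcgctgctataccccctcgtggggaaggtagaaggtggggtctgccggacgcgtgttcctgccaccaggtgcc
The match of MIR503HG, at chrX:134546656-134546660, falls within the bases that encode miR-424-3p (chrX:134546644-134546664). A match is a description of letters, and no binding was measured here.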

How the data were processed

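miRNA-Seq counts were analysed for the 15 libraries, with 5 groups of 3 set by the labels. The authors deposited raw read counts of mature miRNAs per library, not normalized, and the submitters' processing notes name HISAT2, StringTie and DESeq2 without a role or version. The genome build and the miRNA annotation of the counting were not given in the sources used here. Of 1707 miRNAs, 562 passed filterByExpr and were tested with edgeR 4.0.16 (R 4.3.3): TMM factors, 1 model over all 15 libraries, and quasi-likelihood tests whose p-values were adjusted over the 562 by the Benjamini-Hochberg method, with calls under 0.05. Standard errors were derived from the log2 fold change and the F statistic. The script was tested on simulated data. Levels are TMM-scaled CPM, and total counts of 10360337 to 22496373 in the libraries compared set their precision.

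Alternatives were other scalings and filters, DESeq2 1.42.0, limma 3.58.1 on log2(CPM + 1), the 6 libraries alone, a replicate block, miR-126 as a covariate, removal of miR-21-5p, and removal of each replicate in turn. The miRNAs, the 44 lists and the marker lists (glioma, endothelial, blood, epithelial, neuronal, muscle, fibroblast, embryonic stem cell) were chosen with earlier results of these data known. Named miRNAs were miR-210, those called, the 10 lowest and 10 highest log2 fold changes at an unadjusted p under 0.05, 5 CPM or more and no overlap between groups, their partner strands, up to 4 members of each list by p (or the most abundant one), and the 5 most abundant miRNAs. Sequences came from RefSeq (GRCh38.p14), with a mature sequence for 513 of the 562, and host genes from a GENCODE annotation.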

Additional observations from a re-analysis of the deposited data

How the results depend on the processing

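The direction of the 7 called miRNAs was the same in every alternative, whereas the number of calls was not stable. Lower miRNAs at an adjusted p under 0.05 numbered 4 with limma and 4 without the filter on low counts, 0 when only the 6 libraries were fitted, 3 without both libraries with more miR-126 (chosen after seeing the data), and 2 to 5 with a replicate left out, against 7. Higher ones numbered 1 with the size factors of DESeq2, without the filter or without miR-21-5p, 2 with total counts, limma or at least 10 counts in every library, 3 with upper-quartile factors, 4 with miR-126 as a covariate, 5 with the Wald test of DESeq2, and 0 to 1 with a replicate left out, against 0. At an unadjusted p under 0.05, 17 were lower with upper-quartile factors and 17 without both libraries with more miR-126, and 22 to 37 with a replicate left out, against 35. Those higher were 51 with upper-quartile factors, against 32. The comparison without HIF2α gave 19 calls with the Wald test, 21 without the filter and 2 to 17 with a replicate left out, against 10. Without the filter, hypoxia against normoxia gave 15 and the difference between the effects of the knockout 5, against 0 each. The cause of these changes was not tested. The fit of the 6 libraries differs in its number of libraries and also in its filter and scaling, which were set anew. Its median log2 fold change was 0.01, against -0.05.

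Deviations of same-numbered libraries from their group means correlated at -0.52, 0.53 and -0.61, so no pairing by replicate number was seen. With so few libraries, and a library set apart in each group, this check cannot exclude such a pairing. The replicate block gave 6 lower miRNAs, without miR-503-5p. Some named miRNAs changed sign, most of them near 0, with miR-126-3p (-0.45) and let-7a-5p (-0.33) as exceptions. With upper-quartile factors miR-125b-5p was at 0.01, miR-181a-5p at 0.10, miR-155-5p at 0.00, and miR-100-5p and miR-99a-5p at 0.12 each. miR-100-5p and miR-99a-5p were at 0.02 with the size factors of DESeq2, its Wald test or without miR-21-5p, at 0.04 with total counts, at 0.05 without the filter and at 0.06 in the 6 libraries, where miR-181a-5p was at 0.03. miR-181a-5p was at 0.02 with total counts or without the filter. With limma miR-99a-5p and let-7a-5p were at 0.00. Without both libraries with more miR-126, miR-155-5p was at 0.01 and miR-126-3p at 0.15. With a replicate left out, the log2 fold change ranged from -0.00 to 0.27 for miR-107, from -0.06 to 0.05 for miR-181a-5p, from -0.17 to 0.00 for miR-130b-5p, from -0.29 to 0.20 for miR-155-5p, from -0.11 to 0.98 for miR-143-3p, from -1.93 to 1.69 for miR-126-3p, from -0.03 to 0.33 for miR-138-5p, and from -0.09 to 0.16 for miR-100-5p and miR-99a-5p.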
